A study of Mus musculus with 12 samples.

Results

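The comparison described here is between livers of mice injected with NICD1 and myr-AKT and livers of control mice at the early stage, 2 weeks after injection. Members are the genes of the raw count table that reached at least 1 CPM (counts scaled to a common library total) in 3 or more of the 6 libraries of that stage, which left 12458 of 21807 genes. The injected group holds libraries 33, 34 and 35, labelled NICD/myr-AKT with the tissue given as liver carrying a cholangiocarcinoma (CCA) tumor. The control group holds libraries 30, 31 and 32, labelled WT and liver. All are C57BL/6J mice. Injected mice, males of 5 weeks of age by the methods, received hydrodynamic tail vein injection (HTVi), which forces plasmid DNA into hepatocytes. Each received 10 µg of a plasmid for the Notch1 intracellular domain (NICD1), 10 µg of a plasmid for myristoylated AKT and a Sleeping Beauty transposase plasmid that integrates both. No injection is given for the controls, so that effects of the injection and of the oncogenes cannot be told apart. The other 6 of the 12 samples of the series are livers of the same kinds at 3 weeks. Nothing in the labels says how the mice were housed or grouped, so a p-value here reflects variation among single libraries.

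Notch receptors are cut after ligand binding, and the released intracellular domain joins the DNA-binding protein RBPJ to switch on target genes such as those of the Hes and Hey families. In the liver this pathway directs hepatoblasts towards bile duct cells. Akt is the kinase that carries the signal of insulin and growth factors towards glucose uptake, lipid synthesis and survival, and a myristoylated form sits at the membrane and is active without that signal. Adult hepatocytes that receive both can take on biliary features and form tumors that resemble intrahepatic cholangiocarcinoma.

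The 6 libraries held between 13136892 (library 32) and 19471146 (library 35) counts. CPM values below are scaled by edgeR's TMM factors, which ran from 0.883 to 1.34, the highest being that of library 35. In a principal component analysis of log2 CPM the first component held 69.2% of the variance and the second 15.2%. Control libraries 30 and 31 lay at -56.8 and -61.7 on the first component, NICD1/Akt libraries 33 and 34 at 10.2 and 1.88, and library 35 at 78.2. The library labelled control 32 lay at 28.3, on the side of the NICD1/Akt libraries, and stood alone at -49.0 on the second component. Across the member genes the Pearson correlation of log2 CPM was 0.989 between libraries 30 and 31 and 0.984 between 33 and 34, but 0.919 between 32 and either of the other controls, against 0.955 between 32 and each of libraries 33 and 34. Controls 30 and 31 correlated with libraries 33 and 34 at 0.9525 to 0.9615. By this measure library 32 was no nearer to libraries 33 and 34 than controls 30 and 31 were. Genes are not independent replicates, so these correlations carry no p. The chi-square per gene between libraries of a group was at least 24.0, so that no library was a repeat deposit of another.

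The libraries also differed in genes that mark sex. Ddx3y, carried on the Y chromosome, had 740 counts in library 32, 6 in library 33, 1 in library 34 and 0 in libraries 30, 31 and 35, where a count of 0 allows up to 3 counts, or 0.189, 0.204 and 0.115 CPM. All 8 male-biased liver genes on the list were higher in library 32 than in libraries 30 and 31. The major urinary protein gene Mup20 stood at 76.9 and 99.3 CPM in controls 30 and 31, at 9600.5 CPM in library 32 and at 65.0, 60.1 and 91.0 CPM in libraries 33, 34 and 35. All 12 female-biased genes were lower in library 32, where their summed level was 10.0 CPM against 3045 and 1923 CPM in libraries 30 and 31 and between 578 and 2529 CPM in the NICD1/Akt libraries. The study's methods give male mice, and the 6 libraries of 3 weeks all held Ddx3y, at 52.2 to 126 CPM when scaled over all 12 libraries. Within the 2-week controls, the male-type pattern and the distance of library 32 from libraries 30 and 31 cannot be told apart.

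**Figure D1:**
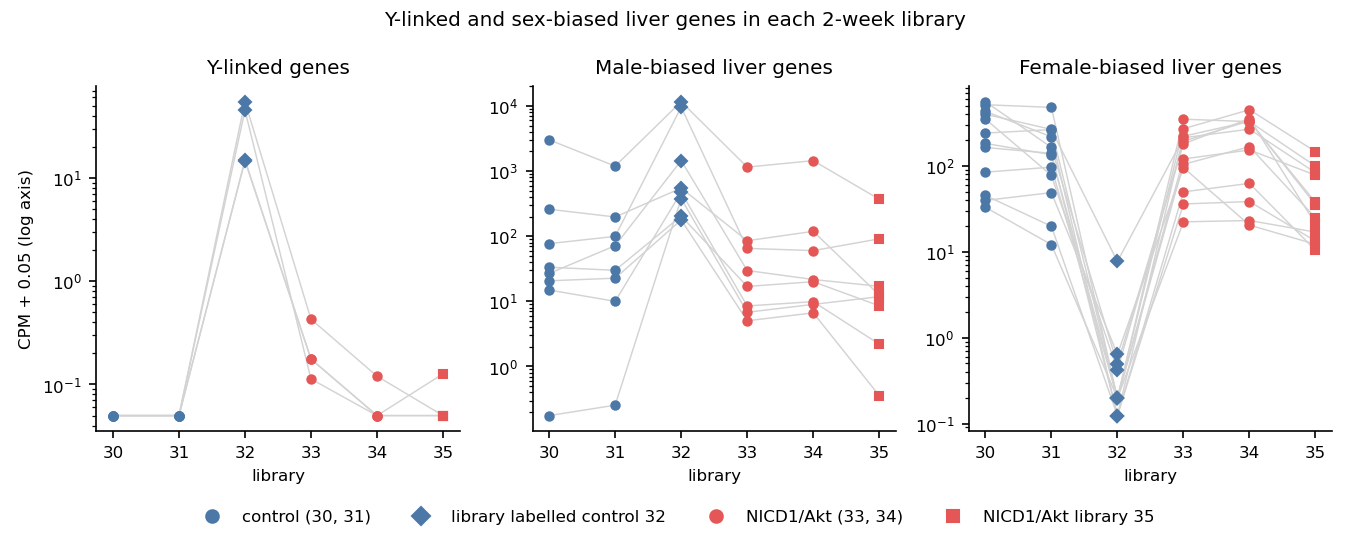
CPM plus 0.05 on a log axis for 4 Y-linked genes, 8 male-biased and 12 female-biased liver genes in each 2-week library, with 1 point per gene and library and grey lines joining a gene's points. Library 32 is high for the Y-linked and male-biased genes and lowest for every female-biased gene.

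The genes of the injected plasmids were read first. Notch1 stood at 46.5 and 50.8 CPM in controls 30 and 31 and in the library labelled control 32 at 101 CPM, against 95.7, 113 and 198 CPM in NICD1/Akt libraries 33, 34 and 35. Akt1 stood at 86.1 and 85.2 CPM in controls 30 and 31, at 364 CPM in library 32 and at 271, 309 and 905 CPM in the NICD1/Akt libraries. Library 32 therefore goes against its label in both genes: it lies with libraries 33 and 34, and library 35 is highest. With all 6 libraries the log2 fold change was 1.03 ± 0.40 (SE, edgeR quasi-likelihood fit) for Notch1 and 1.47 ± 0.75 for Akt1, neither past an adjusted p of 0.05. Without library 32 the values were 1.48 ± 0.36 and 2.54 ± 0.63. Leaving out library 35 instead gave 0.65 for Notch1 and 0.70 for Akt1, so that 1 library of each group moved both. In the fit of libraries 30, 31, 33 and 34 alone, Notch1 rose by 1.09 ± 0.13 log2 units (adjusted p = 0.00483). Akt1 rose by 1.74 ± 0.13 there (adjusted p = 0.000708). That choice of libraries was made after their values were seen, so these p-values describe those libraries and not the groups as labelled. Reads of the plasmids and of the endogenous genes cannot be told apart in a table of counts per gene.

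**Figure D2:**
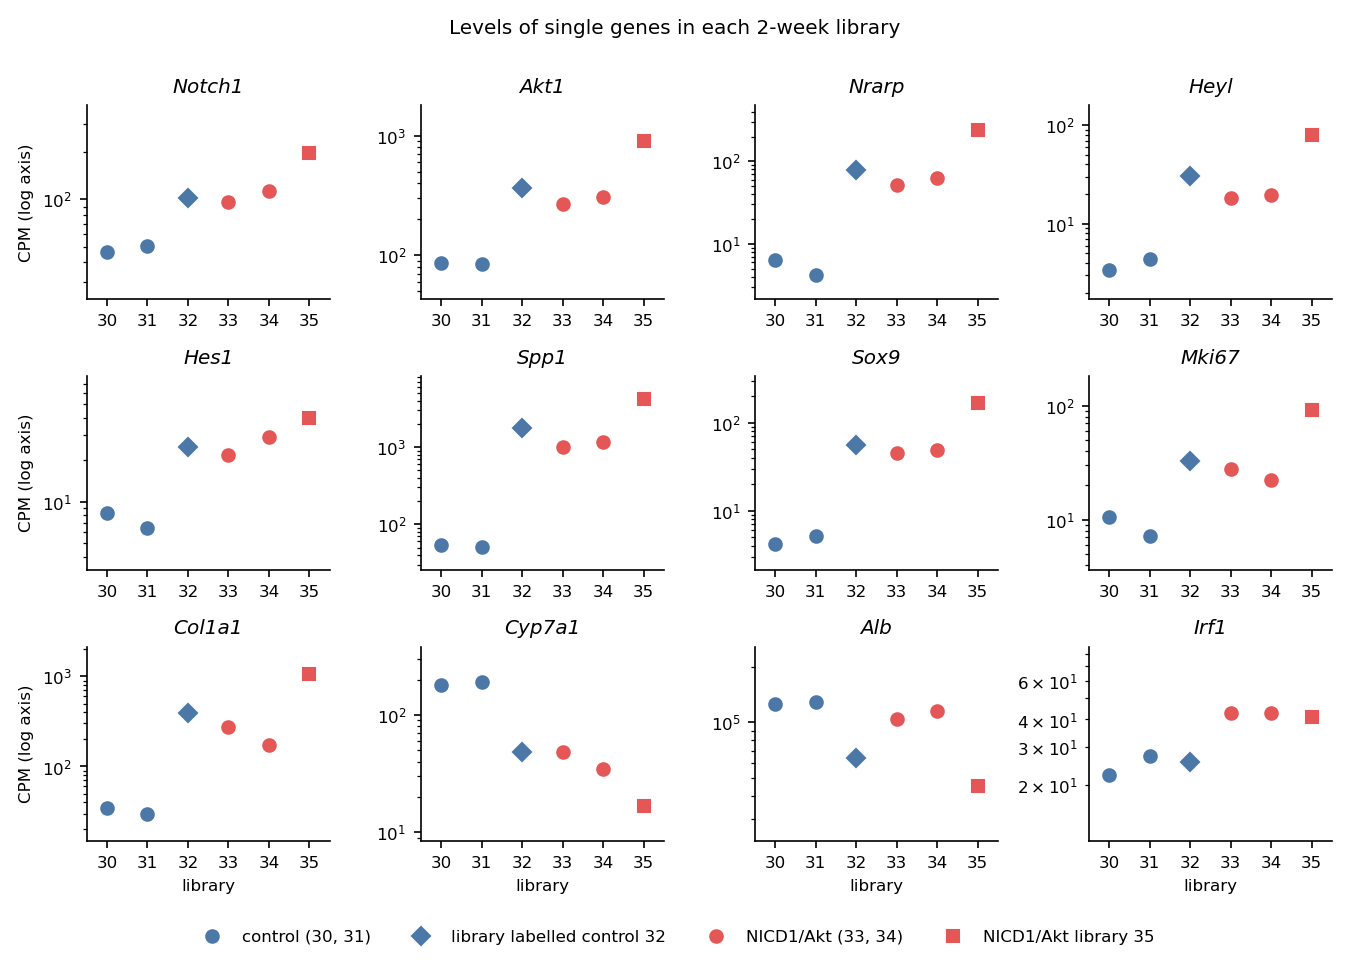
CPM on a log axis of 12 genes in each of the 6 libraries of 2 weeks, 1 point per library, controls in blue and NICD1/Akt in red. For Notch1, Akt1 and the Notch, biliary, cell cycle and matrix genes, library 32 lies with libraries 33 and 34 and library 35 is highest; Irf1 separates the groups as labelled.

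With all 6 libraries as labelled, 0 of 12458 genes passed an adjusted p of 0.05 in edgeR's quasi-likelihood test (0%), while an unadjusted p under 0.05 was reached by 615 genes in the higher direction (4.94%) and by 462 in the lower (3.71%). DESeq2 on the same counts passed 13 genes higher (0.104%) and 13 lower (0.104%), and edgeR's likelihood ratio test 8 and 5. In 950 genes (7.63%) all 3 NICD1/Akt libraries were higher than all 3 controls, and in 1063 genes (8.53%) all were lower. Scaling by library size alone moved the middle log2 fold change over all genes from 0.005 to 0.202. The common biological coefficient of variation was 0.312 with 6 libraries, 0.266 without library 32, 0.262 without library 35 and 0.131 without both.

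Without library 32, an unadjusted p under 0.05 was reached by 1500 genes upwards (12%) and 737 downwards (5.92%), still with 0 genes past an adjusted p of 0.05 in the quasi-likelihood test, while DESeq2 passed 731 higher (5.87%) and 141 lower (1.13%). That DESeq2 fit was added after the data were seen. Its p-values, here and below, describe the libraries in it and not the groups as labelled. Libraries 32 and 35 were then both left out, a choice made after their expression was seen to stand apart from that of their groups. The fit of the 4 that remain, 2 against 2, is thus conditioned on values of these data. Its adjusted p-values, above, here and below, describe those 4 libraries and not the groups as labelled. Without libraries 32 and 35 the quasi-likelihood test passed 621 genes higher (4.98%) and 178 lower (1.43%). The median level of these 621 genes was 3.28 and 3.07 CPM in controls 30 and 31, 11.5 and 10.7 CPM in libraries 33 and 34, 12.9 CPM in library 32 and 29.7 CPM in library 35. In the pair left out, library 35 was above library 32 for 589 of the 621 (94.8%), against 50.9% of all genes tested. It was below library 32 for 131 of the 178 (73.6%), against 49.1%. The median of the 621 genes in library 32 was close to that in libraries 33 and 34, and it was highest in library 35. Both libraries were left out for their expression, and library 35 lay highest on the first component. These shares are therefore no independent check of the calls.

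**Figure D3:**
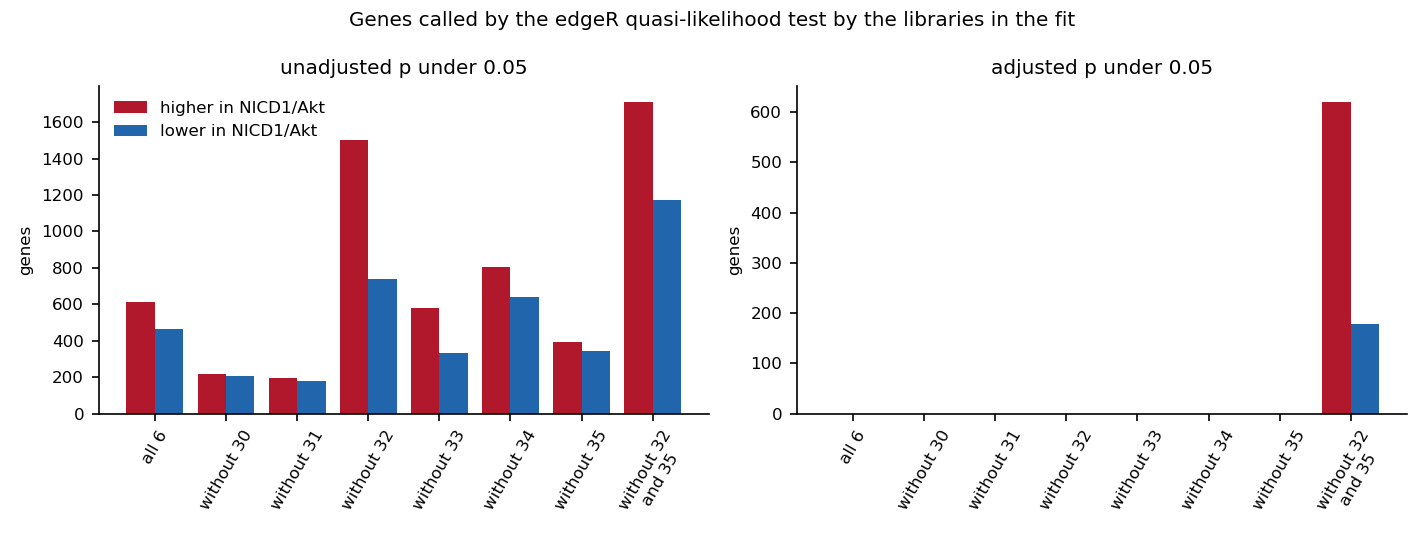
Number of genes higher (red) and lower (blue) in NICD1/Akt by edgeR's quasi-likelihood test for each set of libraries in the fit, at an unadjusted p under 0.05 (left) and an adjusted p under 0.05 (right); bars start at 0. Only the fit without libraries 32 and 35 passed genes at the adjusted threshold, 621 higher and 178 lower.

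The 26 genes that DESeq2 passed with all 6 libraries did not overlap between the groups, against 7.63% (higher) and 8.53% (lower) of all genes tested. Library 32 thus lay on the control side in each, though not always near libraries 30 and 31. The genes were called with library 32 as a control, so this arrangement follows largely from the selection and is no check of its label. Of the 26 genes, 13 were higher and 13 lower. Irf1, an interferon-induced transcription factor, stood at 22.3, 27.2 and 25.6 CPM in controls 30, 31 and 32 and at 42.7, 42.9 and 41.003 CPM in the NICD1/Akt libraries. Its log2 fold change was 0.76 ± 0.11 (DESeq2 adjusted p = 0.000381). The groups did not overlap, and library 35 stood with libraries 33 and 34.

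Socs3, which dampens signalling from cytokine receptors through STAT3, stood at 4.92, 4.09 and 6.41 CPM in the controls and at 10.4, 10.8 and 14.4 CPM in NICD1/Akt, a log2 fold change of 1.21 ± 0.24 (DESeq2 adjusted p = 0.0279). Hivep2, a zinc finger factor that binds kappaB-like sites, stood at 11.9, 10.8 and 14.3 CPM against 23.4, 24.4 and 24.7 CPM, a log2 fold change of 0.97 ± 0.14 (DESeq2 adjusted p = 0.000381). The lipid phosphatase Inpp5d (SHIP1) of blood cells stood at 8.72 to 11.3 CPM in the controls and at 16.8 to 18.0 CPM in NICD1/Akt. Pik3ap1, an adaptor that links receptors to PI3 kinase, stood at 115 to 135 CPM in the controls and at 174 to 203 CPM in NICD1/Akt. Slfn8, of the interferon-inducible Schlafen family, stood at 3.54 to 4.22 CPM against 7.22 to 8.45 CPM. None of these genes overlapped between the groups. Nfkbiz, an inducible nuclear IkappaB protein, had the same arrangement (9.88 to 12.3 against 17.1 to 22.8 CPM) with a DESeq2 adjusted p of 0.0775, which does not pass.

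The promoters of these genes were searched for TTCNNNGAA, the palindromic element that STAT proteins bind, because Irf1 and Socs3 are textbook STAT targets; the motif was chosen after the calls were known. Of the 13 genes that rose, 11 matched an entry by symbol in the RefSeq promoter set (GRCm38.p6), and 2 of the 11 (18.2%), Irf1 and Socs3, held the element in the 250 bases before the start, against 8.13% of the 27025 genes in the set. The 2 stretches are shown because these genes separate the groups in every library; capitals mark the element. The first lies at chr11:53769908-53769948 on the plus strand, with the element 90 to 82 bases before the start. The second lies at chr11:117969496-117969536 on the minus strand, 154 to 146 bases before the start.
Irf1: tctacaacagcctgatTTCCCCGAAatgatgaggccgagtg
Socs3: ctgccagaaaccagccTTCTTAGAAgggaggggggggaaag
The element was also in 1 of the 13 genes that fell (7.69%), Olfml1, and 2 of 11 is a small count from which nothing is read. The core TGGGAA that RBPJ binds, searched on both strands, was in 1 of the 11 (9.09%, Inpp5d), in 3 of the 13 that fell (23.1%) and in 1 of the 5 Notch target genes with an entry (20%, Lfng), against 24.1% of the set. A match describes the letters of the window and does not show binding.

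Ppl (periplakin, a cell junction and cytoskeleton linker) stood at 26.8, 19.6 and 21.4 CPM in the controls and at 41.2, 49.1 and 45.8 CPM in NICD1/Akt, with a log2 fold change of 1.00 ± 0.15 (DESeq2 adjusted p = 0.000381). Grhl1, a transcription factor of surface epithelia, stood at 3.40 to 3.61 CPM against 6.19 to 8.75 CPM. Tcf24, a basic helix-loop-helix factor, stood at 1.69 to 2.86 CPM against 5.74 to 10.4 CPM. Osgin1, an oxidative stress-induced gene, stood at 82.3, 64.4 and 132 CPM against 189.9, 265 and 237 CPM, so that library 32 was the nearest control to the injected group. G0s2, an inhibitor of triglyceride breakdown, stood at 28.6, 18.7 and 34.6 CPM against 76.5, 77.6 and 48.3 CPM, here with library 35 the nearest. Rnf186, an epithelial ubiquitin ligase, and Sult2a3, a sulfotransferase, completed the 13, both below 7 CPM in every library.

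Genes that fell included Ihh (Indian hedgehog, a secreted morphogen), at 3.15, 2.79 and 2.87 CPM in the controls and at 0.189, 0.633 and 0.23 CPM in NICD1/Akt. Its log2 fold change was -3.09 ± 0.51 (DESeq2 adjusted p = 0.000381), and the injected libraries held only 3 to 9 counts each. Dusp1, a phosphatase that switches off MAP kinases, stood at 57.7, 84.97 and 57.1 CPM against 38.0, 37.5 and 28.7 CPM, a log2 fold change of -0.94 ± 0.20. Sult1b1, a sulfotransferase of thyroid hormone and phenols, stood at 33.2, 23.4 and 19.4 CPM against 10.4, 12.7 and 8.56 CPM. Kcnk5, a potassium channel, stood at 53.4 to 72.9 CPM against 32.5 to 38.4 CPM. Coq3, a methyltransferase of ubiquinone synthesis, stood at 18.4 to 22.7 CPM against 11.7 to 14.1 CPM. The groups did not overlap in any of these genes.

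Arl4d, Olfml1 and Fam169b were likewise lower without overlap, and for 5 further genes library 32 was the highest control. Mup17 stood at 140.2, 77.5 and 214 CPM in the controls and at 34.9, 34.02 and 9.67 CPM in NICD1/Akt. Mup15 stood at 48.7, 33.5 and 97.2 CPM against 9.65, 15.3 and 1.96 CPM. Cyp2c67 stood at 89.7, 83.0 and 279 CPM against 47.5, 41.05 and 29.4 CPM, and Serpina12 at 40.4, 41.5 and 108 CPM against 22.3, 14.3 and 8.14 CPM. These genes fell also where library 32 was left out. DESeq2 adjusted p-values were then 0.00359 for Mup17, 0.0208 for Mup15, 0.00077 for Cyp2c67 and 0.0107 for Serpina12. The quasi-likelihood test without library 32 passed none of them (adjusted p of 0.204, 0.232, 0.203 and 0.203). Mup and Cyp2c genes are families of near-identical copies, so their counts may be divided between neighbours. Susd4, a complement regulator, stood at 3.22, 5.38 and 27.5 CPM against 0.694, 1.12 and 0.96 CPM.

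**Figure D4:**
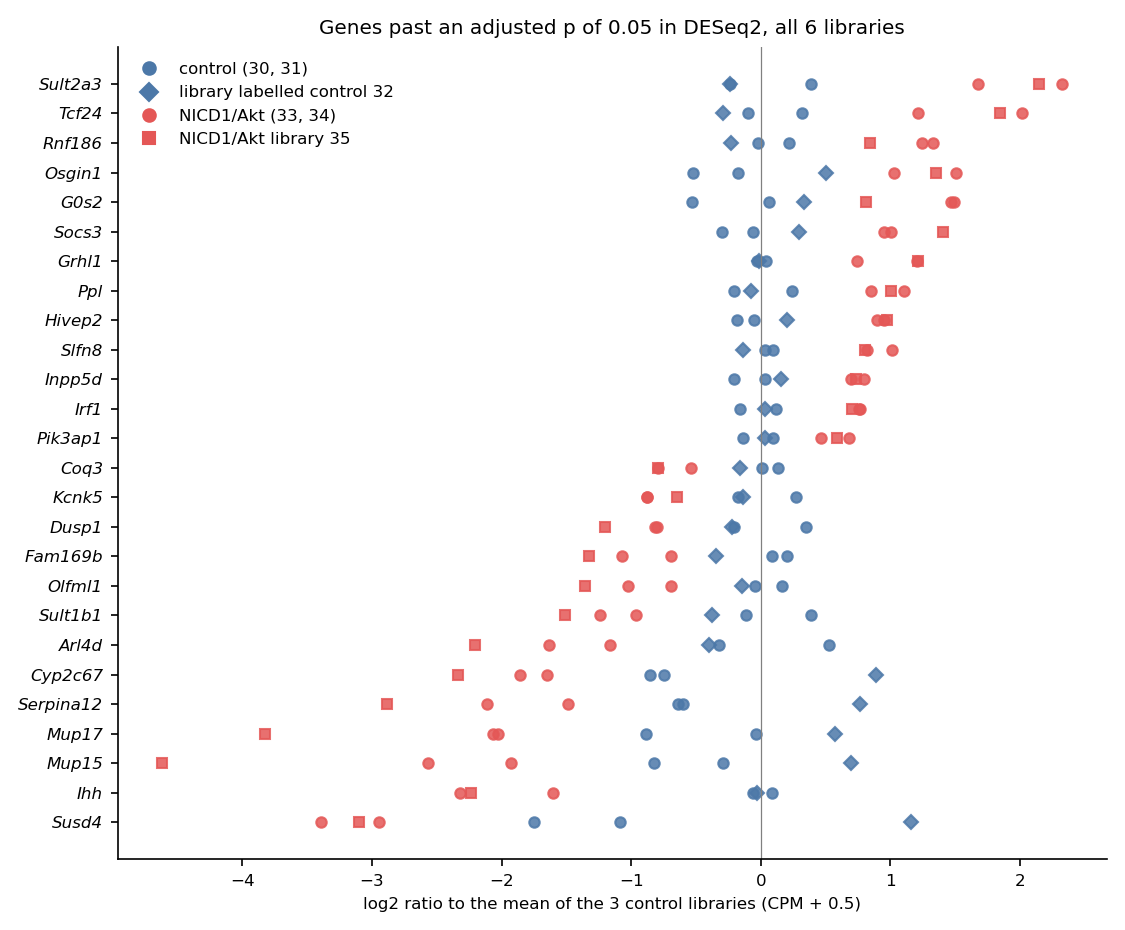
The 26 genes past an adjusted p of 0.05 in DESeq2 with all 6 libraries, each library's log2 ratio of CPM plus 0.5 to the mean of the 3 control libraries, controls in blue and NICD1/Akt in red. All 3 NICD1/Akt points lie on the same side of all 3 control points for each gene; library 32 is the control farthest from NICD1/Akt for Susd4, Mup15, Mup17, Serpina12 and Cyp2c67.

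Of 10 listed Notch target genes 8 were members; Hes5 and Hey2 were below the filter. Library 32 was above both other controls in 8 of the 8, and libraries 33 and 34 were both above libraries 30 and 31 in 7. Shares of all genes tested were not counted for these arrangements, in this list or in those below. Library 35 was the highest of the 6 in 7, against 3963 of the 12458 genes tested. The exception to the last was Lfng, a modifier of Notch receptors, at 7.25, 10.2 and 12.9 CPM in the controls and at 12.9, 11.2 and 8.25 CPM in NICD1/Akt. Nrarp, a Notch-induced feedback inhibitor, stood at 6.31 and 4.22 CPM in controls 30 and 31, at 79.2 CPM in library 32 and at 51.9, 62.7 and 241 CPM in libraries 33, 34 and 35. Heyl, a repressor of the Hey family, stood at 3.40, 4.43 and 30.8 CPM in the controls and at 18.3, 19.6 and 80.0 CPM in NICD1/Akt. Hes1, the main Notch-driven repressor in bile duct formation, stood at 8.32, 6.405 and 24.7 CPM against 21.6, 29.2 and 39.97 CPM. In Nrarp, Heyl and Hes1 library 32 overlapped the injected group, and libraries 30 and 31 were lowest. In bulk RNA, more cells of a type and more RNA per cell cannot be told apart.

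With 6 libraries 0 of the 8 passed an unadjusted p under 0.05. Without library 32, 6 did, all higher, against 12% of all genes tested, and the list's median log2 fold change moved from 1.27 to 1.98, against 0.005 and -0.002 for all genes tested. In the fit of libraries 30, 31, 33 and 34, 5 of the 8 passed an adjusted p of 0.05 (4.98% of all genes tested): Nrarp rose by 3.42 ± 0.21 (0.000375), Heyl by 2.26 ± 0.19 (0.00104), Hes1 by 1.76 ± 0.21 (0.00426), the ligand gene Jag1 by 1.16 ± 0.21 (0.02) and Hey1 by 2.95 ± 0.66 (0.0457), in log2 units with SE and adjusted p. The summed level of the list was 36.4 and 40.8 CPM in libraries 30 and 31, 177 in 32, 128 and 149 in 33 and 34 and 438 in 35.

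Among receptors, ligands and nuclear factors of the pathway, 4 of 9 members were higher at an unadjusted p under 0.05 with all 6 libraries, against 4.94% of all genes tested. Besides Notch1 they were Notch4, Adam10 and Notch2. Notch4, the endothelial receptor, stood at 7.82, 8.79 and 12.96 CPM in the controls and at 15.6, 14.6 and 19.7 CPM in NICD1/Akt (log2 fold change 0.76 ± 0.23). Adam10, the protease that makes the first cut in Notch receptors, stood at 38.1 to 42.4 CPM against 46.4 to 55.5 CPM (0.35 ± 0.12). Notch2, the receptor of biliary development, stood at 62.8 to 70.0 CPM against 76.2 to 105 CPM (0.40 ± 0.16). The groups did not overlap in these genes, which 7.63% of all genes tested showed, and their edgeR p-values did not pass adjustment.

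The summed level of biliary epithelial markers was 88.2 and 88.4 CPM in controls 30 and 31, 2012 CPM in library 32, 1169 and 1352 CPM in libraries 33 and 34 and 4831 CPM in library 35. Spp1 (osteopontin) stood at 53.6 and 50.8 CPM in controls 30 and 31, 1788 CPM in library 32 and 1001, 1174 and 4153 CPM in NICD1/Akt. Sox9, the transcription factor of bile ducts and of reprogrammed hepatocytes, stood at 4.22, 5.11 and 56.05 CPM in the controls and at 45.3, 49.1 and 170.2 CPM in NICD1/Akt. Library 32 was above both other controls in all 11 members. Library 35 was the highest of the 6 in all 11, against 3963 of the 12458 genes tested.

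With 6 libraries 0 of the 11 members passed an unadjusted p under 0.05, 10 were higher without library 32 (12% of all genes tested), and 9 rose past an adjusted p of 0.05 without libraries 32 and 35 (4.98%). In that last fit Spp1 rose by 4.36 ± 0.17 log2 units (adjusted p = 0.000219), Sox9 by 3.32 ± 0.16 (0.000219), the epithelial factor Ehf by 4.30 ± 0.23 (0.000307), the tight junction gene Cldn7 by 3.71 ± 0.33 (0.00144) and the duct keratin Krt19 by 2.02 ± 0.26 (0.00574). Krt7, another duct keratin, stood at 1.39, 1.36 and 3.61 CPM in the controls and at 3.53, 2.04 and 13.9 CPM in NICD1/Akt and did not pass (adjusted p = 0.183). Cldn4 and Sctr were below the filter.

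Progenitor genes divided. Cd24a, a surface protein of liver progenitors, was low in libraries 30 and 31 and highest in library 35, at 3.78, 2.79 and 61.0 CPM in the control libraries against 38.5, 37.7 and 185 CPM in NICD1/Akt. Prom1 (CD133) stood at 6.75, 3.07 and 8.91 CPM against 10.3, 18.7 and 45.4 CPM, without overlap (log2 fold change 2.00 ± 0.62). Cd44, the hyaluronan receptor, stood at 15.1, 15.5 and 21.4 CPM against 32.7, 20.9 and 51.2 CPM (1.02 ± 0.33). Afp, the fetal albumin-like protein, stayed between 0.576 and 2.27 CPM in all libraries, with a log2 fold change of -0.09 ± 0.54, and Igf2 and Dlk1 held at most 2 counts. Of the 5 members 2 were higher at an unadjusted p under 0.05 with 6 libraries, and 1, Cd24a, rose past an adjusted p of 0.05 in the fit of libraries 30, 31, 33 and 34, against 4.94% and 4.98% of all genes tested.

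Cell cycle genes were highest in library 35 in 25 of 25 members, against 3963 of the 12458 genes tested. Mki67, a marker of dividing cells, stood at 10.6, 7.15 and 32.6 CPM in the controls and at 27.6, 22.3 and 91.5 CPM in NICD1/Akt. Top2a, the topoisomerase of chromosome segregation, stood at 7.31, 5.45 and 23.0 CPM against 24.5, 14.4 and 76.7 CPM. Mcm3, a subunit of the replication helicase, stood at 7.76, 6.47 and 9.94 CPM against 13.1, 10.4 and 28.6 CPM and was higher at an unadjusted p under 0.05, as was Ccnd1 (cyclin D1), at 219 to 269 CPM against 298 to 655 CPM. In 24 of 25 members library 32 lay above both other controls. Mcm3 and Ccnd1 were the 2 members under 0.05 with 6 libraries (4.94% of all genes tested), 12 were higher without library 32 (12%), and 4 rose past an adjusted p of 0.05 without libraries 32 and 35 (4.98%), among them Mki67 (1.47 ± 0.21, 0.00924) and Top2a (1.59 ± 0.28, 0.0198).

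Targets of YAP and TAZ, the effectors of the Hippo pathway, were higher at an unadjusted p under 0.05 in 3 of 10 members with 6 libraries, against 4.94% of all genes tested. Amotl2, a junction protein that binds YAP, stood at 33.9, 30.5 and 40.9 CPM in the controls and at 41.7, 57.8 and 57.3 CPM in NICD1/Akt (0.57 ± 0.18). Tead1, the DNA-binding partner of YAP, stood at 22.5 to 32.99 CPM against 34.8 to 57.97 CPM (0.67 ± 0.24). Ajuba, a LIM protein that restrains Hippo kinases, stood at 7.06, 7.90 and 18.4 CPM against 18.5, 16.2 and 49.1 CPM. In Ajuba library 32 overlapped library 34, and the gene rose by 1.20 ± 0.16 (adjusted p = 0.00734) without libraries 32 and 35.

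Among metabolic genes downstream of Akt few passed a test. Of 14 Akt and insulin signalling genes 0 passed an unadjusted p under 0.05 with 6 libraries, and of 15 genes of fatty acid synthesis also 0. Fasn (fatty acid synthase) stood at 939, 2244 and 758 CPM in the controls and at 1326, 1273 and 706 CPM in NICD1/Akt, and Scd1, the main hepatic desaturase, at 6328, 25886 and 11049 CPM against 16067, 12715 and 10810.0 CPM. The groups overlapped in both genes, with control 31 highest. Scd2, the desaturase of non-hepatocyte tissues, instead was lowest in libraries 30 and 31 and highest in library 35, at 17.8, 12.5 and 122 CPM against 90.7, 112 and 305 CPM, and rose by 2.72 ± 0.20 (adjusted p = 0.000613) without libraries 32 and 35.

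Cholesterol synthesis genes were below libraries 30 and 31 in library 32 for 14 of 14 members, and in both libraries 33 and 34 for 12. The share of all genes with these arrangements was not counted, so the counts describe the list only. Hmgcs1, an early enzyme of the pathway, stood at 1447 and 1169 CPM in controls 30 and 31, at 393 CPM in library 32 and at 583, 573 and 333 CPM in NICD1/Akt. Lss, which closes the sterol ring, stood at 178, 165 and 69.4 CPM in the controls and at 98.7, 95.5 and 63.8 CPM in NICD1/Akt. With 6 libraries 0 members passed an unadjusted p under 0.05; without library 32, 8 did, all lower (5.92% of all genes tested), and 4 fell past an adjusted p of 0.05 without libraries 32 and 35 (1.43%), with log2 fold changes of -1.19 ± 0.16 for Hmgcs1 (0.00734), -0.84 ± 0.12 for Lss (0.0081), -0.75 ± 0.13 for Fdft1 (0.0185) and -0.80 ± 0.16 for Idi1 (0.0292).

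In glycolysis 2 of 15 members were higher at an unadjusted p under 0.05 (4.94% of all genes tested), the hexokinase Hk1 (7.63 to 9.5004 CPM in the controls, 8.997 to 14.1 CPM in NICD1/Akt) and the platelet-type phosphofructokinase Pfkp (4.91 to 8.84 against 8.43 to 18.0 CPM). Pkm, the pyruvate kinase of non-hepatocyte cells, stood at 28.2, 27.3 and 46.8 CPM against 53.9, 38.3 and 103 CPM. None of the 15 was higher without overlap. The 3 that were lower without overlap (8.53% of all genes tested) were Tpi1 (305 to 343 against 249 to 290 CPM), Pgk1 (67.1 to 82.7 against 59.9 to 66.6 CPM) and Pfkm (19.01 to 23.3 against 13.6 to 18.5 CPM), and 0 passed an unadjusted p under 0.05 as lower. The abundant Gapdh stood at 513 to 714 CPM in the controls and at 529 to 612 CPM in NICD1/Akt. In gluconeogenesis and FoxO targets 0 of 8 passed with 6 libraries. G6pc, the last step of glucose release, stood at 777, 664 and 708 CPM against 570.4, 456 and 234 CPM without overlap (-0.77 ± 0.34), and Klf15, a fasting-induced factor, at 278, 298 and 243 CPM against 205, 182 and 79.3 CPM (-0.81 ± 0.35). Klf15 fell by 0.59 ± 0.13 (adjusted p = 0.0463) without libraries 32 and 35.

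Many hepatocyte genes had their lowest level in library 35. All 13 secreted hepatocyte proteins, all 7 urea cycle genes and all 12 genes of bile acid synthesis and transport did, against 4183 of the 12458 genes tested. The other hepatocyte lists did so in part, with 6 of 12 cytochrome P450 genes, 8 of 13 transcription factors, 6 of 9 pericentral and 5 of 7 periportal genes lowest there, while 2 of the transcription factors and 1 periportal gene were highest there. Alb (albumin) stood at 125310.0 and 128460.0 CPM in controls 30 and 31, 63686 CPM in library 32, 103760.0 and 114790.0 CPM in libraries 33 and 34 and 45254 CPM in library 35. Hnf4a, the master regulator of hepatocyte identity, stood at 911, 929 and 841 CPM in the controls and at 1094, 1045 and 498 CPM in NICD1/Akt, with a log2 fold change of -0.02 ± 0.33. None of the 13 secreted proteins, 12 cytochrome P450 genes or 7 urea cycle genes passed an unadjusted p under 0.05 with 6 libraries, nor did any of the secreted proteins or urea cycle genes without libraries 32 and 35. The summed level of the secreted proteins was 207030.0 and 205200.0 CPM in controls 30 and 31, 126550.0 CPM in library 32, 179920.0 and 189640.0 CPM in libraries 33 and 34 and 87203 CPM in library 35. Of the 13 hepatocyte transcription factors 2 were higher at an unadjusted p under 0.05 with 6 libraries, against 4.94% of all genes tested, Foxa2 (19.6 to 22.8 against 21.8 to 34.4 CPM) and Prox1 (100.2 to 107 against 118 to 149.7 CPM).

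In bile acid synthesis some genes were lower in all NICD1/Akt libraries. Cyp7a1, the rate-limiting enzyme, stood at 181 and 190.2 CPM in controls 30 and 31, at 48.8 CPM in library 32 and at 47.9, 34.7 and 16.9 CPM in NICD1/Akt. Library 32 was the lowest control but did not cross the injected group. The log2 fold change was -2.08 ± 0.60 with 6 libraries and -2.18 ± 0.17 (adjusted p = 0.000804) without libraries 32 and 35. Nr0b2 (SHP), the repressor induced by bile acids, stood at 77.3, 70.0 and 49.7 CPM against 43.6, 48.0 and 25.2 CPM (-0.76 ± 0.28). Of the 12 genes 4 were lower at an unadjusted p under 0.05 and 6 did not overlap, against 3.71% and 8.53% of all genes tested. The other pair, Cyp7b1 and the organic anion transporter Slco1a1, are also male-biased and stood at 204 and 548 CPM in library 32; without libraries 32 and 35 their log2 fold changes were -0.80 ± 0.14 (adjusted p = 0.0198) and -1.18 ± 0.20 (adjusted p = 0.0176).

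In one-carbon and methionine metabolism 2 of 19 members were lower at an unadjusted p under 0.05 with 6 libraries (3.71% of all genes tested), among them Bhmt, which remethylates homocysteine with betaine. Bhmt stood at 1792 and 2031 CPM in controls 30 and 31, 842 CPM in library 32 and 684, 943 and 571 CPM in NICD1/Akt (-1.09 ± 0.39). Phgdh, the first enzyme of serine synthesis, ran the other way, at 0.189, 0.0681 and 3.68 CPM in the control libraries against 4.48, 2.04 and 15.2 CPM in NICD1/Akt. It rose by 4.55 ± 0.70 (adjusted p = 0.0126) without libraries 32 and 35.

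Of the genes that the study itself names for mice, a choice made on these samples, an unadjusted p under 0.05 was reached by 5 of 32 epigenetic regulators upwards and by 0 downwards. The maintenance DNA methyltransferase Dnmt1 stood at 15.95, 16.3 and 21.7 CPM in the controls and at 27.5, 21.1 and 42.8 CPM in NICD1/Akt (0.76 ± 0.28). Kmt2a, a histone H3K4 methyltransferase, stood at 41.3 to 47.6 CPM against 50.1 to 63.7 CPM (0.35 ± 0.13). Ciita, the activator of MHC class II genes, stood at 1.89 to 2.18 CPM against 2.60 to 5.30 CPM (1.00 ± 0.33). The other 2 were Phf20 and the origin recognition subunit Orc2. The shares of all genes tested were 4.94% and 3.71%, and the list's median log2 fold change was 0.24. Of 21 metabolic genes 0 were higher and 2 lower, Bhmt and Clybl, a mitochondrial lyase, which stood at 28.6, 28.1 and 29.5 CPM against 20.4, 21.6 and 16.4 CPM (-0.56 ± 0.13).

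Acute phase genes were higher at an unadjusted p under 0.05 in 3 of 13 members, against 4.94% of all genes tested. Orm2, an orosomucoid, stood at 11.3, 10.97 and 19.3 CPM in the controls and at 31.8, 29.7 and 88.2 CPM in NICD1/Akt (1.85 ± 0.49). Il1rn, the interleukin 1 receptor antagonist, stood at 4.16, 4.91 and 9.5004 CPM against 14.4, 12.4 and 39.5 CPM (1.85 ± 0.54). Lcn2 (lipocalin 2) stood at 22.1, 20.9 and 20.8 CPM against 44.6, 31.9 and 167 CPM (1.94 ± 0.62). The groups did not overlap in these genes, as in 7.63% of all genes tested, while the abundant Hp (haptoglobin) overlapped, at 1868 to 2883 CPM in the controls and 1895 to 3013 CPM in NICD1/Akt. These 3 genes also rose past an adjusted p of 0.05 without libraries 32 and 35, as 5 of the 13 did, against 4.98% of all genes tested.

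**Figure D5:**
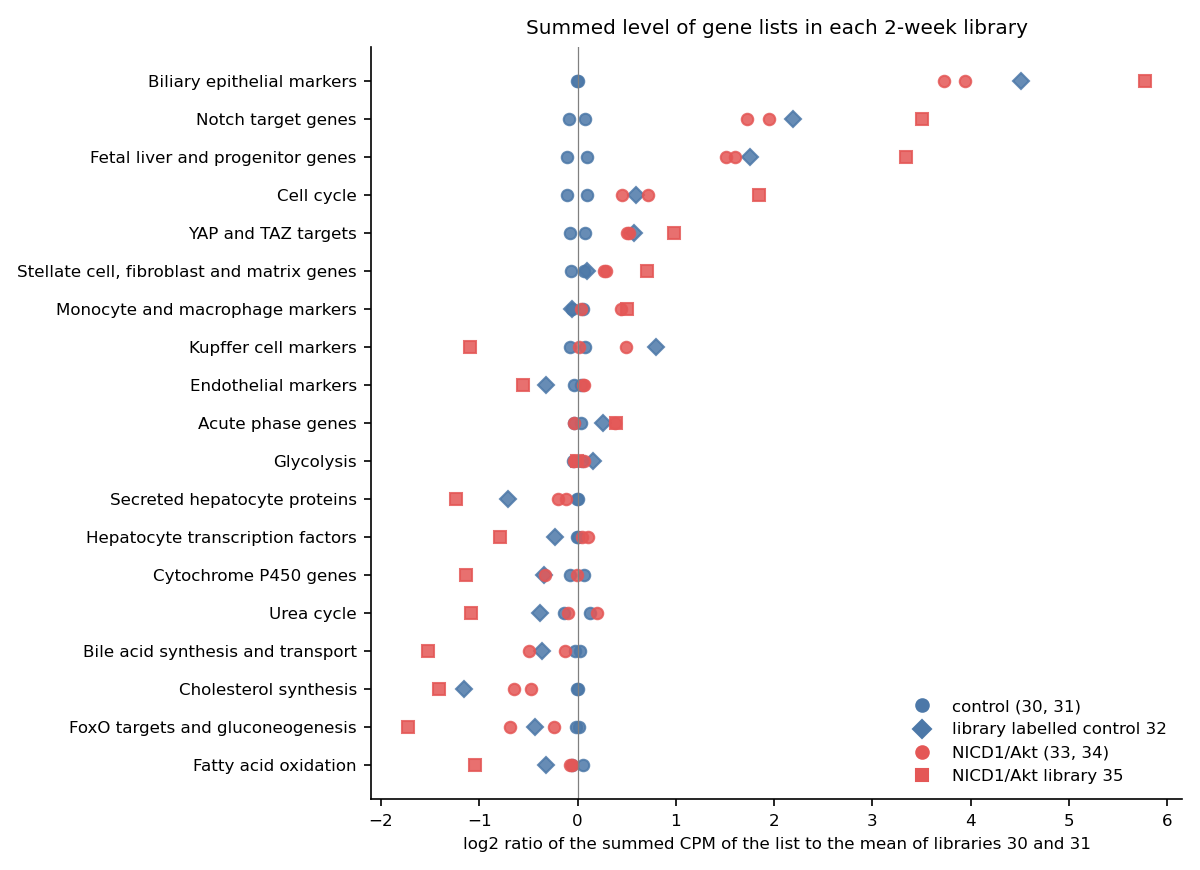
Log2 ratio of each library's summed CPM over 19 gene lists to the mean of control libraries 30 and 31, 1 point per library, controls in blue and NICD1/Akt in red. Biliary, Notch target and progenitor lists are high in library 32 as in libraries 33 and 34 and highest in library 35; hepatocyte lists are lowest in library 35, with libraries 33 and 34 near 0 for most.

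Markers of other cell types moved with the groups in part. Ccr2, the receptor of recruited monocytes, stood at 1.39, 1.36 and 3.54 CPM in the controls and at 6.37, 4.22 and 19.2 CPM in NICD1/Akt (2.26 ± 0.69), and Trem2, of lipid-associated macrophages, at 1.13, 1.09 and 2.28 CPM against 2.02, 3.09 and 5.64 CPM. These were the 2 of 11 monocyte and macrophage members higher at an unadjusted p under 0.05 (4.94% of all genes tested). The list's summed level was 359, 387 and 359 CPM in the controls and 507, 382 and 529 CPM in NICD1/Akt, so that library 34 lay within the controls. All 7 Kupffer cell markers had their lowest level in library 35, against 4183 of the 12458 genes tested. The 1 member that was lower at an unadjusted p under 0.05 (3.71%) and without overlap (8.53%) was C6, at 25.2, 29.8 and 408 CPM against 24.5, 23.7 and 9.83 CPM, where library 32 sets the size of the difference. The lectin Clec4f stood at 168, 174 and 139 CPM against 141, 177 and 72.4 CPM, and the scavenger receptor Marco at 8.32, 9.40 and 11.3 CPM against 94.2, 13.2 and 5.797 CPM, raised in library 33 alone. In lymphocytes 0 of 6 members and in neutrophils 0 of 3 passed an unadjusted p under 0.05; Ly6g had 0 counts in every library, which allows up to 3.

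In the list of stellate cell, fibroblast and matrix genes library 32 was above both other controls in 13 of 17 members and below both in 4. Library 35 was the highest of the 6 in 12 and the lowest in 4 (3963 and 4183 of the 12458 genes tested). The summed level was 3524, 3223 and 3597 CPM in the controls and 4055, 4131 and 5490.0 CPM in NICD1/Akt. Col1a1 stood at 34.7 and 29.7 CPM in controls 30 and 31, 393 CPM in library 32 and 274, 174 and 1064 CPM in NICD1/Akt, and Col3a1 at 93.1, 85.5 and 559 CPM against 429.5, 312 and 1319.6 CPM. Fn1 (fibronectin) ran otherwise, at 2861, 2575 and 1761 CPM against 2598, 2987 and 1616 CPM. The only member of the 17 under 0.05 with 6 libraries was Lrat, the retinol esterase of quiescent stellate cells, which was lower (25.1 to 30.3 against 11.3 to 22.6 CPM), where 3.71% of all genes tested were. Without libraries 32 and 35, 7 of the 17 rose past an adjusted p of 0.05 (4.98% of all genes tested), Col1a1 by 2.78 ± 0.23 (0.00104) and Col3a1 by 2.04 ± 0.18 (0.00144). The endothelial gene Pecam1 stood at 33.7 to 34.8 CPM against 38.7 to 48.2 CPM (0.36 ± 0.12), the only 1 of 10 members under 0.05, against 4.94% of all genes tested. Mesothelial Upk3b and Msln, of the liver surface, were both lower. Both members of that list were so at an unadjusted p under 0.05 (3.71% of all genes tested), and 1 without overlap (8.53%). Upk3b overlapped between the groups, at 5.04, 7.02 and 2.36 CPM in the controls against 2.52, 1.12 and 1.31 CPM in NICD1/Akt. The part of mesothelial and of the other cell types in the results above was not tested.

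Immediate early genes gave 1 of 7 members higher (Ier2, 26.6 to 37.4 against 38.1 to 42.1 CPM) and 1 lower (Dusp1, above) at an unadjusted p under 0.05, against 4.94% and 3.71% of all genes tested. Egr1 stood at 66.6, 77.1 and 111 CPM in the controls and at 148, 193 and 56.2 CPM in NICD1/Akt, high in libraries 33 and 34 and lowest in library 35. Heat shock genes gave 0 of 5 with 6 libraries and circadian clock genes 0 of 12. The clock gene Npas2 stood at 9.52 and 12.1 CPM in controls 30 and 31 and at 0.81 CPM in library 32. In NICD1/Akt it stood at 3.09, 2.88 and 1.96 CPM. The clock-controlled gene Tef stood at 53.7, 70.5 and 157 CPM in the control libraries against 118, 117 and 101 CPM. Without libraries 32 and 35 Npas2 fell by 1.87 ± 0.22 (adjusted p = 0.00467) and Tef rose by 0.90 ± 0.15 (0.017). The hour of sampling is not given in the sources used here, and its part in the result was not tested.

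The genes with the largest change once library 32 was left out were nearly absent from controls 30 and 31. Gabrp, a GABA receptor subunit of epithelia, stood at 0.883 and 0.273 CPM in those controls and at 78.5 CPM in library 32. In NICD1/Akt it stood at 47.7, 46.2 and 228 CPM. Its log2 fold change without library 32 was 7.52 ± 1.24 in edgeR's quasi-likelihood fit, which did not pass (adjusted p = 0.203). DESeq2 without library 32 gave 7.55 ± 0.80 (adjusted p = 3.14e-17). Gabrp was picked for its change without library 32, so this p is no support for a difference between the groups as labelled. Clca3a2, a chloride channel accessory protein, stood at 0.0631, 0.204 and 9.79 CPM against 11.3, 11.6 and 56.6 CPM. Gpx2, the epithelial glutathione peroxidase, stood at 0.126, 0 and 13.3 CPM against 5.93, 6.26 and 37.9 CPM, and the cartilage collagen Col2a1 at 0, 0.0681 and 5.82 CPM against 3.47, 4.08 and 19.04 CPM. S100b, a calcium-binding protein, had 0 counts in libraries 30 and 31 and stood at 5.67 CPM in library 32 and at 3.03, 3.02 and 19.9 CPM in NICD1/Akt. All of these were detected in library 32 at a level between those of libraries 33 or 34 and 35, or below them for Clca3a2.

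On the lower side, Ctse (cathepsin E) stood at 17.0 and 26.0 CPM in controls 30 and 31, 0.663 CPM in library 32 and 0.504, 0.141 and 1.80 CPM in NICD1/Akt. Lgr5, a Wnt pathway receptor of pericentral hepatocytes, stood at 15.4, 11.7 and 1.47 CPM against 2.71, 5.41 and 1.34 CPM. Arrdc2, an arrestin-like protein, stood at 53.8, 84.4 and 24.4 CPM against 20.7, 14.7 and 9.25 CPM. Cyp2b13, of the female-biased list, stood at 84.4 and 96.6 CPM in controls 30 and 31 and at 22.3, 23.1 and 16.9 CPM in NICD1/Akt, and fell by 2.02 ± 0.13 (adjusted p = 0.000375) without libraries 32 and 35, while Sult2a1, a hydroxysteroid sulfotransferase of the same list, stood at 32.98 and 12.1 CPM against 120.3, 153 and 77.9 CPM and rose by 2.58 ± 0.40 (0.0125). Library 32 held 0.147 CPM of both. Of the 12 female-biased genes, 1 rose and 2 fell past an adjusted p of 0.05 in that fit (4.98% and 1.43% of all genes tested).

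Some genes reached their level in library 32 alone. C6, a complement component, stood at 408 CPM there and at 9.83 to 29.8 CPM in the other 5 libraries. The mitochondrial gene mt-Nd3 stood at 253 CPM against 1.38 to 3.23 CPM, and Alas2, the erythroid heme enzyme, at 125 CPM against 11.4 to 17.6 CPM, while the globin gene Hbb-bs had 443 counts there against 438 to 1761 counts in the others. Cyp4a12a, a male-biased fatty acid hydroxylase, stood at 377 CPM in library 32, at 0.126 and 0.204 CPM in controls 30 and 31 and at 6.75, 8.93 and 11.7 CPM in NICD1/Akt. Its log2 fold change was -3.77 ± 2.28 with 6 libraries and 5.74 ± 0.49 without library 32, so that this library set the direction. In library 35 the genes farthest above libraries 33 and 34 included Gp2 (113, 81.0 and 802 CPM in libraries 33, 34 and 35), a zymogen granule glycoprotein, and the uroplakin Upk3a (10.3, 6.26 and 72.3 CPM).

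The early effect was set against that at 3 weeks in a fit of all 12 libraries, over 13397 genes. The 3-week minus 2-week difference was positive in 2075 genes (15.5%) and negative in 2194 (16.4%) at an adjusted p under 0.05, and without library 32 in 1437 and 1572. The stages differ also in the sex-linked genes above, which cannot be told apart from time. Among the genes that separated the labelled groups at 2 weeks, several had an opposite effect in the separate fit of 3 weeks. Socs3 had a log2 fold change of 1.21 at 2 weeks and of -1.56 at 3 weeks (adjusted p of the difference 0.000505), Rnf186 of 1.32 and -3.29 (0.00121), Ppl of 1.00 and -2.59 (0.00692) and Kcnk5 of -0.80 and 3.16 (0.000397). For Irf1 (0.76 and 0.49) and Ihh (-3.09 and -3.67) the difference did not pass (adjusted p = 0.598 and 0.517). In the separate edgeR quasi-likelihood fit of 3 weeks Ihh passed (adjusted p = 0.000135). Irf1 did not (0.49 ± 0.41, adjusted p = 0.31), so no effect at 3 weeks is shown for it. Notch1 had 1.03 and 3.19 (adjusted p of the difference 0.00974) and Nrarp 1.99 and 8.61 (0.014), values that at 2 weeks include library 32. With the 3 controls of 3 weeks added to those of 2 weeks, the log2 fold change at 2 weeks turned to -2.40 for Socs3, -1.05 for Ppl, -0.65 for Rnf186, -0.31 for Nfkbiz and 0.09 for Kcnk5, so that their direction rests on the 2-week controls.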

How the data were processed

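Bulk poly(A) RNA-seq libraries of mouse liver were compared, 3 per group. The authors deposited a raw count table of whole-number counts per gene; per the study's methods reads were trimmed, aligned with STAR and counted per gene on mm10, whereas GRCm39, Subread 2.0.6 and STAR 2.7 stand in the submitters' notes, so the build is uncertain and no coordinate from the table is used. Gene symbols came from GENCODE M21, which matched 21573 of 21807 gene IDs without version, 11 with the same version. No columns of other samples were found.

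Counts were fitted with edgeR 4.0.16 (TMM scaling, quasi-likelihood test) in R 4.3.3, with Benjamini-Hochberg adjustment over all 12458 genes with at least 1 CPM in 3 libraries; DESeq2 1.42.0 and limma 3.58.1 served as alternatives. SE is the absolute log2 fold change divided by the square root of F. Groups come from the genotype labels. CPM is count over TMM-scaled library size. On simulated counts for this comparison (12458 genes) the test recovered 94 of 100 4-fold and 22 of 100 2-fold changes. There were 7 false calls among 12258 unchanged genes. The simulation gave all genes a common spread, changed only genes above 5 CPM and had no library standing apart from its group. Its recovery therefore does not carry over to the real libraries. Floors cover counting error only, while the SE also holds the fitted spread between libraries. Members and gene lists were chosen with earlier results of these data known. Named genes are, per list, the 5 with the smallest p and the 3 most abundant, and over all genes the 10 per direction with the smallest p (mean of at least 5 CPM, no overlap), those DESeq2 passed, the 10 per direction with the largest change without library 32, the 5 per direction most apart in libraries 32 and 35, and the 5 per direction with the largest difference between stages; C6, Alas2 and genes at 0 are named as list members, and Cyp4a12a, Gp2 and Upk3a by the rule on libraries 32 and 35. Some list members that were tested are not reported here.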

Additional observations from a re-analysis of the deposited data

Results flagged for a closer look

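Effects at 3 and at 2 weeks differed past an adjusted p of 0.05 in the fit of all 12 libraries for the 5 genes named in each direction, which is what singled them out. The positive differences, as log2 effect at 3 weeks minus that at 2 weeks, were 13.5 for Gp2, 12.38 for Igfbpl1, 11.44 for Akr1cl, 11.06 for Tmem213 and 10.89 for Nexmif. Without library 32 these were 9.19 for Gp2 and 11.55 for Tmem213, still past the threshold, and 7.89 for Igfbpl1, 4.44 for Akr1cl and 7.36 for Nexmif, which were not (adjusted p 0.174, 1 and 0.179). Igfbpl1 stood at 0.378, 0.477 and 29.2 CPM in controls 30, 31 and 32 and at 17.1, 16.8 and 104 CPM in NICD1/Akt at 2 weeks. Akr1cl had 0 counts in libraries 30 and 31, and Tmem213 at most 1 count in any 2-week library, so that these fitted differences depend on the prior count and are no bound.

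The negative differences were -5.69 for Cyp2b10, -5.35 for Sult1e1, -4.85 for Mt2, -4.69 for Rnf186 and -4.61 for Egr1, each still past the threshold without library 32 (-5.13, -4.79, -4.38, -4.55 and -4.81). Mt2, a metallothionein, stood at 117, 100.03 and 21.4 CPM in the controls and at 644, 225 and 236 CPM in NICD1/Akt at 2 weeks.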

How the results depend on the processing

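With 6 libraries the quasi-likelihood test passed 0 genes at an adjusted p of 0.05, also when each library was left out in turn (0 to 0). DESeq2 passed 26 and the likelihood ratio test 13. Without libraries 32 and 35 the quasi-likelihood test passed 799. Chosen after seeing the data, DESeq2 passed 872 without library 32, 875 without 32 and 35 and 24 without 35, and the likelihood ratio test 790 without 32.

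At an unadjusted p under 0.05, leaving out 1 library gave 195 to 1500 genes higher and 180 to 737 lower, the lowest without library 31 and the highest without library 32; without 30 there were 215 and 207, and without 35, 393 higher. Voom with quality weights gave 1995 higher and 1215 lower, the fit of all 12 libraries 1435 and 949, all 6 controls 1683 and 1227, and omission of 32 and 35 1713 and 1174. Library size alone gave 176 lower. DESeq2 gave 1610 and 699 without 32, 1285 and 806 without 32 and 35 and 357 higher without 35; the likelihood ratio test without 32 gave 1654 and 714.

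The difference between stages was positive in 3523 and negative in 301 genes by library size alone, in 3136 and 3317 without 32 and 35, and in 1203 to 3273 and 1224 to 3475 leaving out 1 library, lowest without 33 and highest without 35.

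Against all 6 controls the log2 fold change reversed for Ppl (-1.05), Socs3 (-2.40), Nfkbiz (-0.31), Rnf186 (-0.65), Kcnk5 (0.094), Foxa2 (-0.14), Nr0b2 (0.05), Kmt2a (-0.13), Ier2 (-0.62), Hspa1b (-3.55) and Mt2 (-0.84). Hnf4a was 0.24 in DESeq2 without 35. Cyp4a12a was -3.77 with 6 libraries, -4.36 to 5.74 leaving out 1 library, 4.26 with quality weights, 5.74 without 32 in both edgeR tests, 5.81 in DESeq2 without 32, and 5.49 in edgeR and 5.56 in DESeq2 without 32 and 35. Apart from omitting libraries, the cause was not tested. Of 85 named genes under 0.05 with 6 libraries, 74 stayed under it without 32 and 58 without 35. No paired analysis was possible because the library numbers are not shared between the groups.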

Other observations

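Scaled over all 12 libraries, the mitochondrial transcript mt-Nd3 was at 265 CPM in library 32 and at 1.42 to 3.40 CPM in the NICD1/Akt libraries of 2 weeks, and had 0 counts in all 6 libraries of 3 weeks, while mt-Nd1 lay between 2789 and 8944 CPM in all 12. mt-Nd1 was chosen for this after the value of mt-Nd3 had been seen.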
